A study of Mus musculus with 12 samples.

Results

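Type I interferon-stimulated effector genes encode the antiviral proteins that a cell makes after it has sensed interferon. A list of 49 such mouse genes was followed across all groups of a microarray experiment on microglia. A gene counted as measured where a probe set carried its symbol and no other in the platform annotation, with older symbols included. That held for 42 of the 49 genes, each through a single probe set, among 19938 genes measured in the same way. Oas1g, Gvin1, Ifi47, Isg15, Ifi204 and Sp110 lay only on probe sets that also carry another gene's symbol, Ifi44 was not matched, and these 7 genes have no value here. Isg15, the ubiquitin-like founder of its conjugation system, is therefore represented by its partners Usp18 and Herc6.

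The cells were primary mouse microglia, resident macrophages of brain tissue, taken with magnetic CD11b beads from C57BL/6J pups on postnatal day 7 and kept in culture for 3 days before treatment. Cultures received Aβ42 oligomers at 10 µM together with AE1-329 at 100 nM, Aβ42 at 10 µM alone, AE1-329 at 100 nM alone, or vehicle, each for 6 h. Aβ42 is the peptide that aggregates into plaques in Alzheimer's disease, and AE1-329 is a selective agonist of EP4, a receptor of prostaglandin E2 that couples to cAMP. Per the labels, cultures with Aβ42 alone had ethanol at 0.001%, those with AE1-329 alone had DMSO at 0.4%, and vehicle cultures had both. For the combined cultures the labels name no vehicle, so whether solvents were matched across the groups cannot be told. Each of the 4 groups holds 3 arrays, 1 for each of 3 litters, so an array stands for the cells of a litter of pups, and the litter number pairs arrays across groups. All 4 groups share the C57BL/6 background, in which Mx1 carries a deletion that abolishes the protein and Oas1b carries a premature stop, so transcripts of these 2 genes report on induction and not on antiviral activity.

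Type I interferons bind the receptor of Ifnar1 and Ifnar2, whose kinases activate a transcription factor complex that includes STAT2 and IRF9. It binds interferon-stimulated response elements, in which GAAA repeats, and switches on effector genes that bind viral RNA, degrade RNA, deplete nucleotides or modify proteins. In macrophages and microglia, pattern receptors can start the same programme within hours by inducing interferon beta, and agents that raise cAMP are known to dampen inflammatory gene induction in these cells.

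Promoter windows from RefSeq (mouse build GRCm38.p6, 250 bases before to 50 bases after each start) were matched for 37 of the 49 genes. They were searched on both strands for 2 copies of GAAA with any 2 bases between them, the core of the response element. The motif was found for 12 of the 32 measured members with an entry (37.5%), against 3.89% of the 15614 genes tested on the arrays that have an entry. The windows below belong to the 6 measured members with a match before the start site and outside the annotated gene. They are shown because Ifit1 and Rsad2 had the largest changes with Aβ42, whereas Lgals9 did not pass in that comparison and also holds a match. Capitals mark the motif, which reads TTTC on the other strand, and every window is given 5′ to 3′ on the strand of its gene. A match says only that these letters are present.
Ifit1, chr19:34640760-34640838, plus strand: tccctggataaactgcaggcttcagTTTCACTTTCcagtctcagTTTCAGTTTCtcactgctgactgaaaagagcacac
Rsad2, chr12:26456538-26456597, minus strand: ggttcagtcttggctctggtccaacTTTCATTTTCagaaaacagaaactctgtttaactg
Oas3, chr5:120777700-120777759, minus strand: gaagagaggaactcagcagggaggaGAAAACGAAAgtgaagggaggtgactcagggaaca
Trim30a, chr7:104465195-104465254, minus strand: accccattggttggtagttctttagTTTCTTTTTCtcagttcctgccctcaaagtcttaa
Bst2, chr8:71537562-71537627, minus strand: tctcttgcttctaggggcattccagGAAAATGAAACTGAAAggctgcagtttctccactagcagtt
Lgals9, chr11:78984945-78985004, minus strand: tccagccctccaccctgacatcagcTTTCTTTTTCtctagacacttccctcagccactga
Ifit1 holds 2 separate copies, and Bst2 holds 2 copies that overlap. Listed members also share chromosomes: Ifit1, Ifit2, Ifit3 and Ifit3b lie on chromosome 19, all 7 listed Oas and Oasl genes on chromosome 5, and Mx1, Mx2, Parp9, Parp14, Dtx3l and Rtp4 on chromosome 16. Not all of these are neighbours. On chromosome 16, Parp9, Parp14 and Dtx3l lie together, whereas Rtp4 and the Mx genes lie far from them. On chromosome 5 the Oasl genes lie apart from the Oas genes. Ifit3 and Ifit3b, and Oas1a and Oas1g, are near-identical copies, so the signal of their probe sets may be shared between copies.

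The deposited values are log2 expression levels, 1 per probe set and array, with array medians between 6.97 and 7.05. A difference of 1 log2 unit is a 2-fold change. Of 10 microglia and macrophage markers 9 were measured, and Cd68, Trem2 and Csf1r lay above the 99th percentile of genes in all 4 groups. Others were lower, with Tmem119 at 8.33 to 8.66 and Aif1 at 7.82 to 8.60, between percentiles 56.4 and 69.2. The astrocyte, neuron and endothelial lists had group means of at most 7.91. The measured monocyte and neutrophil genes had at most 6.28 and the lymphocyte genes at most 7.45. Of the oligodendrocyte list Mbp was the highest at 8.68 to 9.04, and 1 of its 5 measured genes was lower with Aβ42 alone than in vehicle. Of the 5 plasmacytoid dendritic cell genes Siglech lay at 6.71 to 6.83, Ly6d at 6.58 to 6.64, Tcf4 at 10.07 to 10.97 and Irf8 at 10.22 to 11.50, and with Aβ42 alone 1 was higher (Ccr9, by 0.96) and 2 were lower. Of the 9 microglia markers 2 were higher and 4 lower with Aβ42 alone than in vehicle. The microglial receptor gene P2ry12 averaged 7.53 with both agents, 7.74 with Aβ42 alone, 8.58 with AE1-329 alone and 9.18 in vehicle, and the endothelial and leukocyte gene Pecam1 averaged 7.44, 6.54, 7.75 and 6.52 in the same groups. The part of these shifts in the results below was not tested. Replicate 3 of AE1-329 alone stood apart. There, 9 members (Ifit1, Ifit2, Ifit3, Ifit3b, Mx1, Usp18, Rsad2, Cmpk2 and Ifi209) lay at least 1 log2 unit above both other arrays of the group, out of 16 such genes among all 19938. Counts of members, and values that this array moved most, are therefore also given without it. By the same gap, vehicle replicate 1 had 18 genes above both other vehicle arrays, with 0 members among them, and Ifit3 below both. In replicate 1 of AE1-329 alone, Ifit2 and Ifit3 lay that far below both others.

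Litter was visible across the whole list, as the map of levels by array shows. Litter 3 had the highest level of the 3 arrays for 38 of 42 members with Aβ42 and AE1-329, for 41 with Aβ42 alone, for 38 with AE1-329 alone and for 39 in vehicle. Over all genes the same litter was highest for 25.6% to 37.9% of genes, depending on the group. Litter 1 was the lowest for 32 to 38 members in each group. The spread between arrays of a group was accordingly wide, with a median SD over members of 0.167, 0.148, 0.208 and 0.213 log2 units with both agents, with Aβ42 alone, with AE1-329 alone and in vehicle, against 0.0660, 0.0628, 0.0648 and 0.109 over all genes. Where the litter as a block in the fit changes a call, its adjusted p is given as well.

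**Figure D1:**
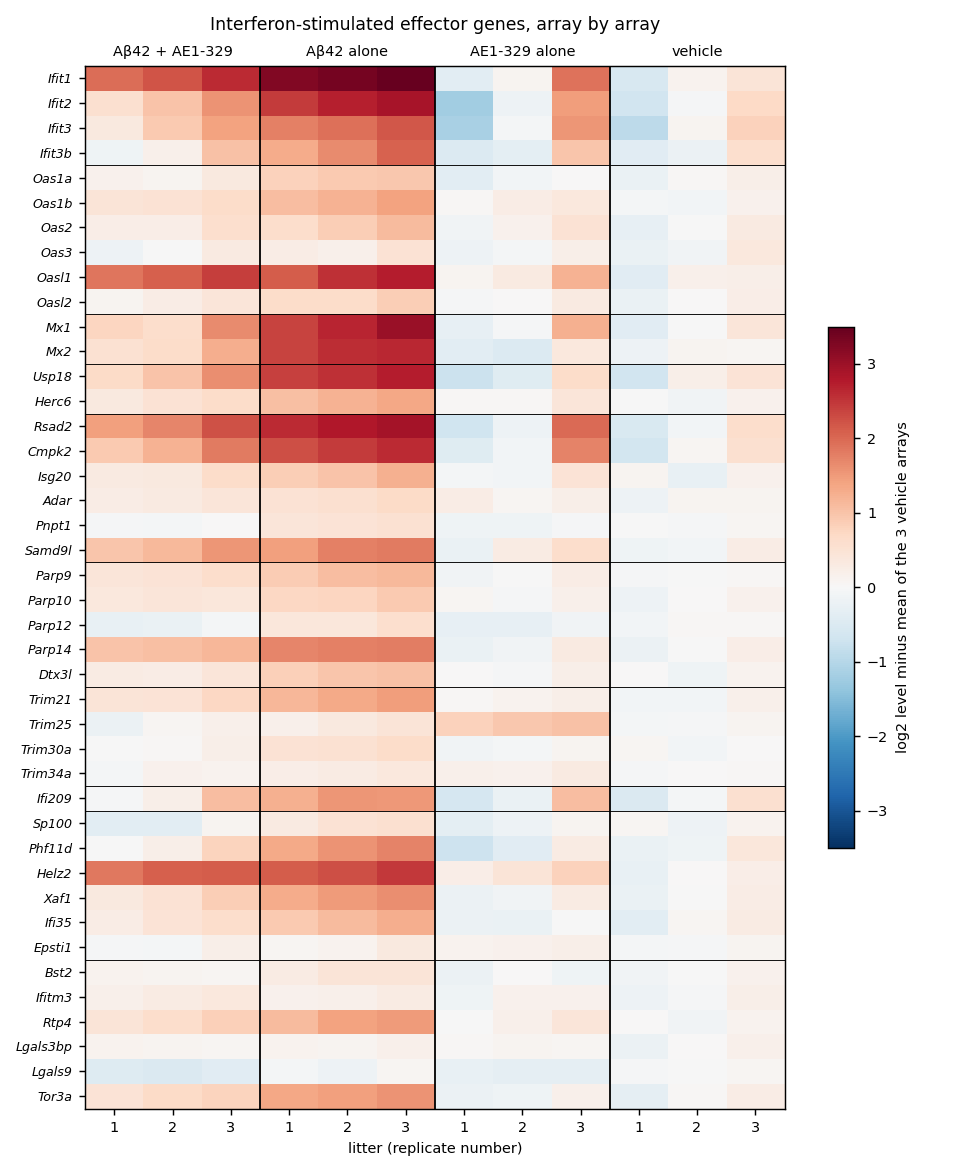
Log2 level of the 42 measured members (rows, grouped by role) in each of the 12 arrays (columns, by group and litter), as the difference from the mean of the 3 vehicle arrays. The columns of Aβ42 alone are the darkest, those of Aβ42 with AE1-329 are paler, and replicate 3 of AE1-329 alone stands out from the other 2 arrays of its group.

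Aβ42 alone raised most of the list within 6 h. Of the 42 members 37 were higher than in vehicle by limma's test over all genes (adjusted p under 0.05), none was lower and 5 did not pass, where 10.7% of all genes tested were higher and 14.8% lower. The median change was 1.15 log2 units over the members and 0.02 over all genes. In these bulk cultures, a change in the number of responding cells and a change in RNA per cell cannot be told apart. Within litters, 40 of the 42 members were higher with Aβ42 in all 3 litters. The calls of 33 members held when each of the 12 arrays was left out in turn, and those of Ifit3, Trim25, Ifi209 and Sp100 did not. With the litter block 40 members passed as higher, where 12.1% of all genes did.

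Adding AE1-329 to Aβ42 lowered most of the list. Against Aβ42 alone, 25 members fell, 0 rose and 17 did not pass, where 5.99% of all genes were higher and 5.04% lower. The median was -0.65 over the members and -0.02 over all genes. In all 3 litters 40 of the 42 members were lower, and Ifitm3 was higher. With the litter block 37 members fell, and without replicate 3 of AE1-329 alone, which enters this comparison only through the shared estimate of spread, 29 did. Of all genes 6.05% fell with the block and 4.71% without that array. Leaving out each array in turn ended the calls of Ifit3b, Oasl2, Mx1, Usp18, Isg20, Ifi35 and Bst2, and 18 calls held throughout.

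With both agents, fewer members were above the levels of cultures without Aβ42. Against vehicle, Aβ42 with AE1-329 left 19 members higher and 1 lower, where 9.27% of all genes were higher and 11.9% lower, with a median of 0.42. Without replicate 3 of AE1-329 alone 21 were higher and 1 lower, where 8.98% and 11.5% of all genes were. The litter block gave 28 higher and 2 lower, where 10.2% and 13.7% of all genes were. Against AE1-329 alone, 16 members were higher and 1 lower, where 9.77% of all genes were higher and 12.2% lower, with a median of 0.33 (0.49 without replicate 3 of AE1-329 alone). The count of 16 became 25 without replicate 3 of AE1-329 alone, where 8.60% of all genes were higher. With the litter block it was 27, where 10.7% were. It was 10 without replicate 1 or replicate 2 of AE1-329 alone, and 10 without replicate 3 of the combined treatment, whose omission also brought the count against vehicle to 12. For those 3 omissions the share of all genes was not taken, so whether the drop concerns the members in particular cannot be told. The comparisons share arrays, so their counts are not independent.

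**Figure D2:**
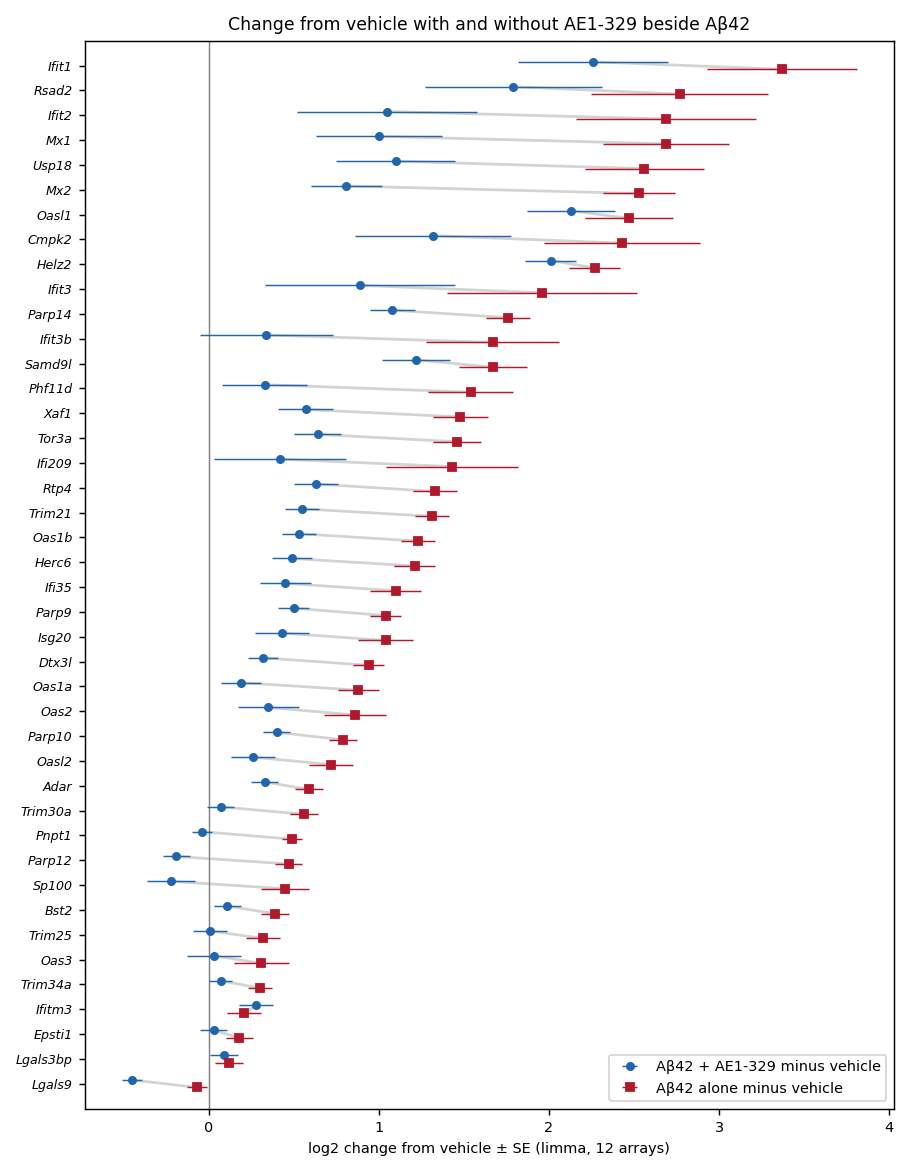
Log2 change from vehicle (x axis, ± SE of the limma fit over 12 arrays) of each measured member, with Aβ42 and AE1-329 (blue circles) and with Aβ42 alone (red squares). The blue point lies left of the red one for 41 of the 42 members, all but Ifitm3.

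The IFIT proteins bind viral RNA ends and block translation, and all 4 measured members rose with Aβ42 (1.67 to 3.37). Ifit1 had the largest change of the list. Its levels were 9.92, 10.16 and 10.58 with Aβ42 and AE1-329, 11.19, 11.32 and 11.49 with Aβ42 alone, 7.58, 8.06 and 9.85 with AE1-329 alone and 7.39, 8.07 and 8.42 in vehicle. The 3 Aβ42 arrays lay above all others and close together, while replicate 3 of AE1-329 alone came to just under the combined treatment. Ifit1 was thus 3.37 ± 0.44 higher with Aβ42 than in vehicle (10.4-fold, adjusted p = 7.03e-05). Its difference between the combined treatment and Aβ42 alone was -1.11 ± 0.44 and did not pass (adjusted p = 0.158), but passed with the litter block (adjusted p = 0.0212) and without replicate 3 of AE1-329 alone (adjusted p = 0.00947). Ifit2, a partner in the same RNA-binding complex, had 8.36, 8.79 and 9.38 with both agents, 10.26, 10.52 and 10.69 with Aβ42 alone, 6.57, 7.63 and 9.26 with AE1-329 alone and 7.13, 7.77 and 8.50 in vehicle. Aβ42 alone again gave the 3 highest arrays, and the litters of the other groups ran far apart. The Aβ42 change of Ifit2 was 2.69 ± 0.53 (adjusted p = 0.00175), and that of AE1-329 added to Aβ42 was -1.65 ± 0.53 (adjusted p = 0.0692, and 0.00221 with the litter block). The latter also passed without replicate 3 of AE1-329 alone. Ifit3 rose by 1.96 ± 0.56 with Aβ42 (adjusted p = 0.0186), though not without replicate 3 of Aβ42 alone or vehicle replicate 1 (adjusted p = 0.0620 and 0.0862). Ifit3b fell by 1.33 ± 0.39 when AE1-329 was added (adjusted p = 0.0475), a call that ended without any 1 of 7 arrays, namely replicate 1 or 2 of Aβ42 with AE1-329, any replicate of Aβ42 alone, replicate 2 of AE1-329 alone or vehicle replicate 2 (adjusted p between 0.0543 and 0.191).

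The 2′-5′ oligoadenylate synthetases sense double-stranded RNA and make the second messenger that activates RNase L, whereas the OASL proteins lack or have lost that activity in part and act on RNA sensing. Of the 6 measured genes 5 rose with Aβ42, and Oas3 did not pass with all arrays and no block (0.31 ± 0.16, adjusted p = 0.211). Oas3 passed with the litter block (adjusted p = 0.00404), and with no block when vehicle replicate 3 was left out. Oasl1, which represses translation of Irf7, had the largest change of the group. It stood at 10.00, 10.23 and 10.56 with Aβ42 and AE1-329, at 10.24, 10.70 and 10.87 with Aβ42 alone, at 8.23, 8.46 and 9.34 with AE1-329 alone and at 7.74, 8.32 and 8.34 in vehicle. Both groups with Aβ42 lay above both groups without it, and they overlapped each other. Oasl1 rose by 2.47 ± 0.26 with Aβ42 (5.53-fold, adjusted p = 1.11e-05) and differed by -0.34 ± 0.26 when AE1-329 was added (adjusted p = 0.567, and 0.111 with the litter block).

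Oas1b and Oas1a behaved differently from Oasl1. Oas1b, truncated in this strain, had 7.47, 7.54 and 7.66 with both agents, 8.11, 8.25 and 8.43 with Aβ42 alone, 7.08, 7.28 and 7.40 with AE1-329 alone and 6.97, 6.93 and 7.19 in vehicle. The combined arrays lay between those of Aβ42 alone and all arrays without Aβ42, with no overlap. Oas1b rose by 1.23 ± 0.10 with Aβ42 (adjusted p = 1.03e-06) and fell by 0.71 ± 0.10 when AE1-329 was added (adjusted p = 0.000538). For Oas1a, a catalytically active synthetase, the levels were 8.38, 8.34 and 8.57 with both agents, 9.03, 9.14 and 9.19 with Aβ42 alone, 7.86, 8.14 and 8.24 with AE1-329 alone and 8.0, 8.28 and 8.43 in vehicle. Only Aβ42 alone was clear of the other groups, as the combined arrays overlapped vehicle. Oas1a fell by 0.69 ± 0.12 with AE1-329 on top of Aβ42 (adjusted p = 0.00162), and its difference from vehicle in the combined treatment was 0.19 ± 0.12 (adjusted p = 0.333). Among the remaining synthetases, Oasl2 fell by 0.46 ± 0.13 (adjusted p = 0.0349) and Oas2 differed by -0.51 ± 0.18 (adjusted p = 0.103, and 0.000163 with the litter block). The Oasl2 call ended on leaving out replicate 1 or 2 of Aβ42 with AE1-329 or any replicate of Aβ42 alone (adjusted p between 0.0611 and 0.147).

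Mx1 and Mx2 encode large dynamin-like GTPases that trap viral nucleocapsids, and they showed the 2 largest falls of the list under AE1-329. Mx2 stood at 6.00, 6.13 and 6.74 with Aβ42 and AE1-329, at 7.84, 8.07 and 8.11 with Aβ42 alone, at 5.11, 5.0 and 5.85 with AE1-329 alone and at 5.31, 5.58 and 5.55 in vehicle. The 3 combined arrays lay more than 1 log2 unit below every array of Aβ42 alone and above every array without Aβ42. Mx2 averaged 6.29 ± 0.39 with both agents, 8.01 ± 0.15 with Aβ42 alone, 5.32 ± 0.46 with AE1-329 alone and 5.48 ± 0.15 in vehicle (SD, n = 3 each). It rose by 2.53 ± 0.21 with Aβ42 (5.77-fold, adjusted p = 1.19e-06) and fell by 1.72 ± 0.21 when AE1-329 was added (3.30-fold lower, adjusted p = 0.000160). Mx1, whose transcript is made although its protein is lost in this strain, had 6.84, 6.72 and 7.76 with both agents, 8.46, 8.77 and 9.13 with Aβ42 alone, 5.80, 6.07 and 7.35 with AE1-329 alone and 5.69, 6.08 and 6.53 in vehicle. Litter 3 was the highest in each group, and its AE1-329 array lay within the range of the combined treatment. Mx1 rose by 2.69 ± 0.37 with Aβ42 (adjusted p = 0.000111) and fell by 1.68 ± 0.37 with AE1-329 added (adjusted p = 0.0102). Leaving out either replicate 2 of Aβ42 with AE1-329 or replicate 3 of Aβ42 alone ended that call (adjusted p = 0.0505 and 0.0506).

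Usp18 removes ISG15 from proteins and restrains the interferon receptor, and Herc6 is the mouse ligase that attaches ISG15. Usp18 levels were 9.32, 9.66 and 10.27 with Aβ42 and AE1-329, 11.04, 11.20 and 11.39 with Aβ42 alone, 7.89, 8.22 and 9.30 with AE1-329 alone and 7.98, 8.86 and 9.12 in vehicle. Aβ42 alone stood clear of the combined treatment, which lay above vehicle and, but for 1 AE1-329 array that fell just under its lowest, well above AE1-329 alone. Usp18 rose by 2.56 ± 0.35 with Aβ42 (adjusted p = 0.000107) and fell by 1.46 ± 0.35 with AE1-329 added (adjusted p = 0.0172). The fall was lost when replicate 1 or 2 of Aβ42 with AE1-329 was left out, and likewise without replicates 2 or 3 of Aβ42 alone (adjusted p between 0.0534 and 0.0826). Herc6 stood at 9.56, 9.72 and 9.87 with both agents, at 10.28, 10.43 and 10.57 with Aβ42 alone, at 9.26, 9.25 and 9.65 with AE1-329 alone and at 9.20, 9.10 and 9.36 in vehicle. Its combined arrays lay between Aβ42 alone and vehicle without overlap. Herc6 rose by 1.21 ± 0.12 with Aβ42 (adjusted p = 4.80e-06) and fell by 0.72 ± 0.12 with AE1-329 added (adjusted p = 0.00148).

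**Figure D3:**
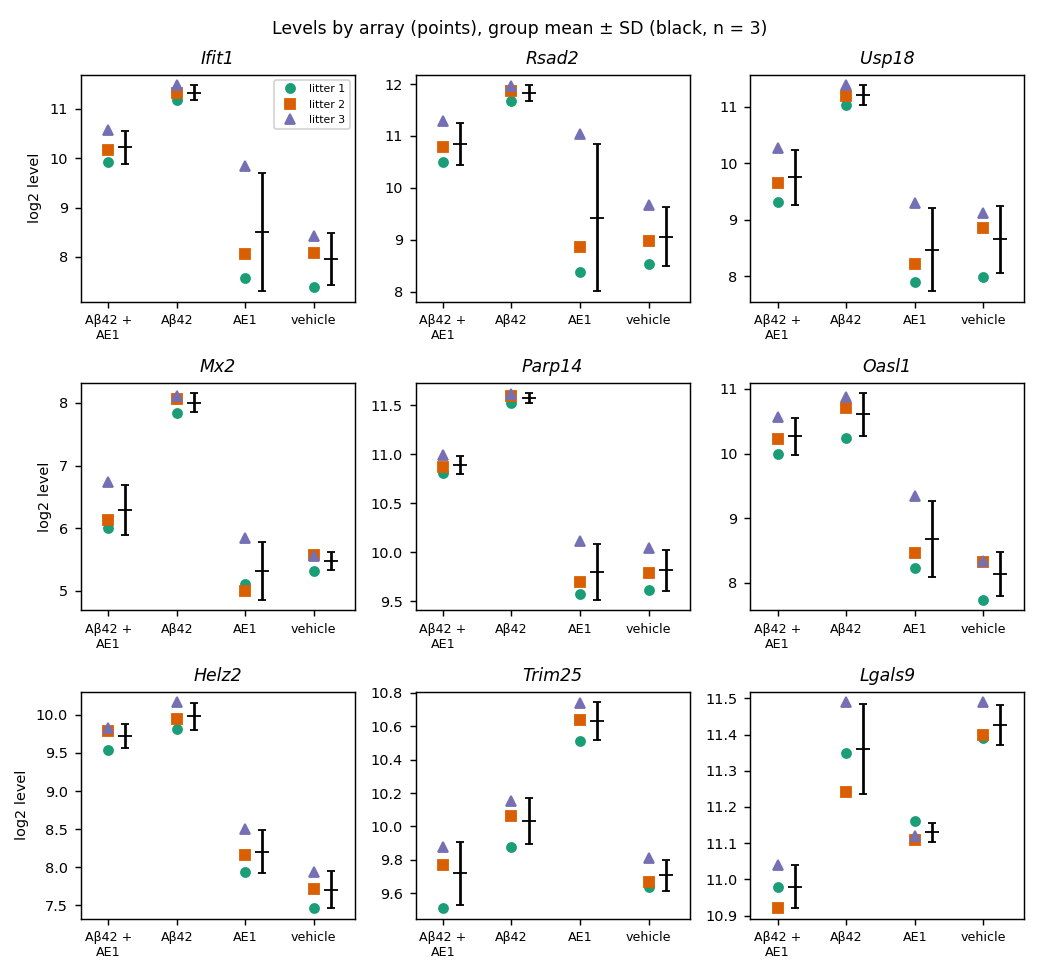
Log2 level by array (points, shaped by litter) with the group mean ± SD (black, n = 3) for 9 members, with the groups from left to right Aβ42 with AE1-329, Aβ42 alone, AE1-329 alone and vehicle. Mx2 falls by 1.72 between Aβ42 alone and the combined treatment while Oasl1 and Helz2 differ by -0.34 and -0.26, and Trim25 is highest with AE1-329 alone.

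Among enzymes of nucleotides and RNA all 6 measured genes rose with Aβ42. Rsad2 encodes viperin, which makes a chain-terminating nucleotide, and lies beside Cmpk2, a mitochondrial nucleotide kinase that feeds it. Rsad2 had 10.49, 10.78 and 11.28 with both agents, 11.67, 11.86 and 11.97 with Aβ42 alone, 8.37, 8.87 and 11.04 with AE1-329 alone and 8.54, 8.97 and 9.67 in vehicle. Replicate 3 of AE1-329 alone reached the levels of the combined treatment, while its other 2 arrays lay within the range of vehicle or below it. Rsad2 rose by 2.77 ± 0.52 with Aβ42 (6.84-fold, adjusted p = 0.00124). Its difference with AE1-329 added was -0.99 ± 0.52 (adjusted p = 0.323, and 0.0775 with the litter block), and it passed without that array (adjusted p = 0.0312). Cmpk2 had 9.21, 9.52 and 10.13 with both agents, 10.55, 10.75 and 10.91 with Aβ42 alone, 7.87, 8.20 and 10.04 with AE1-329 alone and 7.67, 8.37 and 8.87 in vehicle. The pattern over the 12 arrays was that of its neighbour, with the same high array. Cmpk2 rose by 2.43 ± 0.46 with Aβ42 (adjusted p = 0.00133) and differed by -1.11 ± 0.46 with AE1-329 added (adjusted p = 0.176, and 0.0137 with the litter block). Its difference with AE1-329 added also passed without replicate 3 of AE1-329 alone.

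Pnpt1, a polynucleotide phosphorylase of mitochondria that interferon induces, moved little but evenly. Its levels were 9.22, 9.20 and 9.30 with Aβ42 and AE1-329, 9.71, 9.76 and 9.82 with Aβ42 alone, 9.11, 9.11 and 9.24 with AE1-329 alone and 9.26, 9.22 and 9.34 in vehicle. With AE1-329 added the arrays were back in the range of the groups without Aβ42. Pnpt1 rose by 0.49 ± 0.06 with Aβ42 (adjusted p = 3.01e-05) and fell by 0.53 ± 0.06 with AE1-329 added (adjusted p = 7.05e-05). The exonuclease gene Isg20 fell by 0.61 ± 0.16 (adjusted p = 0.0255), a call that ended on leaving out replicate 1 or 2 of Aβ42 with AE1-329, or replicate 2 or 3 of Aβ42 alone (adjusted p between 0.0660 and 0.115). The RNA editing enzyme Adar differed by -0.26 ± 0.08 (adjusted p = 0.0794, and 0.0408 with the block), and Samd9l, an antiviral translation inhibitor, by -0.45 ± 0.20 (adjusted p = 0.216, and 0.00558 with the block).

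The interferon-induced PARP proteins attach ADP-ribose, and Dtx3l is the ubiquitin ligase that pairs with Parp9. All 5 measured genes rose with Aβ42 (0.47 to 1.76) and all 5 fell with AE1-329 added (-0.68 to -0.39). Parp14, which modifies proteins with single ADP-ribose units, stood at 10.81, 10.87 and 10.99 with both agents, at 11.52, 11.59 and 11.61 with Aβ42 alone, at 9.58, 9.70 and 10.12 with AE1-329 alone and at 9.62, 9.79 and 10.04 in vehicle. The 3 levels of the experiment were well separated, with the 2 groups without Aβ42 on top of each other. Parp14 rose by 1.76 ± 0.13 with Aβ42 (3.38-fold, adjusted p = 2.56e-07) and fell by 0.68 ± 0.13 with AE1-329 added (adjusted p = 0.00322). Parp9 had 9.27, 9.34 and 9.46 with both agents, 9.75, 9.95 and 9.99 with Aβ42 alone, 8.73, 8.85 and 9.11 with AE1-329 alone and 8.81, 8.85 and 8.91 in vehicle. Dtx3l had 10.08, 10.05 and 10.23 with both agents, 10.64, 10.77 and 10.83 with Aβ42 alone, 9.81, 9.75 and 10.00 with AE1-329 alone and 9.81, 9.66 and 9.94 in vehicle. Both partners thus lay in the middle when AE1-329 was added, clear of Aβ42 alone and of both groups without Aβ42. Parp9 fell by 0.54 ± 0.09 (adjusted p = 0.00221) and Dtx3l by 0.63 ± 0.09 (adjusted p = 0.000428). Parp12 was the only one of the 5 whose combined arrays (10.77, 10.81 and 10.96) lay at or below vehicle (10.95, 11.07 and 11.09), a difference of -0.19 ± 0.08 (adjusted p = 0.110, and 0.0164 with the litter block).

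TRIM proteins are ubiquitin ligases of innate immunity, and the 4 measured members rose with Aβ42 (0.30 to 1.31). Trim21 is a cytosolic receptor of antibody-coated virus. It had 9.07, 9.08 and 9.34 with Aβ42 and AE1-329, 9.77, 9.94 and 10.07 with Aβ42 alone, 8.66, 8.73 and 8.82 with AE1-329 alone and 8.52, 8.53 and 8.79 in vehicle. The combined arrays again lay between the others with no overlap. Trim21 rose by 1.31 ± 0.10 with Aβ42 (adjusted p = 3.88e-07) and fell by 0.76 ± 0.10 with AE1-329 added (adjusted p = 0.000234). Trim30a, a negative regulator of NF-kB signalling in mice, fell by 0.49 ± 0.08 (adjusted p = 0.000929). Trim34a stood at 7.47, 7.68 and 7.65 with both agents, at 7.77, 7.81 and 7.89 with Aβ42 alone, at 7.70, 7.68 and 7.84 with AE1-329 alone and at 7.48, 7.53 and 7.57 in vehicle. Its range over all arrays was narrow, and vehicle lay below either agent alone. Trim34a differed by -0.22 ± 0.07 with AE1-329 added to Aβ42 (adjusted p = 0.0534, and 0.0187 with the litter block).

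Trim25, the ligase that activates the RNA sensor RIG-I, had its highest levels elsewhere. Its levels were 9.51, 9.77 and 9.88 with Aβ42 and AE1-329, 9.88, 10.06 and 10.15 with Aβ42 alone, 10.51, 10.64 and 10.74 with AE1-329 alone and 9.64, 9.67 and 9.81 in vehicle. The 3 highest arrays were those of AE1-329 alone, and the combined treatment overlapped vehicle. AE1-329 alone raised Trim25 by 0.92 ± 0.10 over vehicle (1.90-fold, adjusted p = 5.52e-05), and by 0.87 (adjusted p = 0.000477) without its replicate 3. With Aβ42 added to AE1-329 it fell by 0.91 ± 0.10 (adjusted p = 1.40e-05), and by 0.86 (adjusted p = 0.000126) without that array. The rise with Aβ42 alone was 0.32 ± 0.10 (adjusted p = 0.0287) and did not pass without replicates 2 or 3 of Aβ42 alone or vehicle replicates 1 or 2 (adjusted p between 0.0686 and 0.120).

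Ifi209, of the PYHIN family of DNA-binding proteins, had 7.76, 8.0 and 8.87 with Aβ42 and AE1-329, 9.03, 9.34 and 9.31 with Aβ42 alone, 7.20, 7.55 and 8.87 with AE1-329 alone and 7.29, 7.73 and 8.35 in vehicle. Litter 3 was well above the other litters in the 3 groups other than Aβ42 alone. Ifi209 rose by 1.43 ± 0.39 with Aβ42 (adjusted p = 0.0153), though not without replicate 2 of Aβ42 alone or vehicle replicate 1 (adjusted p = 0.0511 and 0.0701), and differed by -1.01 ± 0.39 with AE1-329 added (adjusted p = 0.143, and 0.00470 with the litter block). The difference with AE1-329 added also passed without replicate 3 of AE1-329 alone.

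Of 6 nuclear and regulatory proteins 5 rose with Aβ42. Helz2, a helicase that coactivates nuclear receptors, had 9.54, 9.79 and 9.83 with both agents, 9.82, 9.95 and 10.17 with Aβ42 alone, 7.94, 8.16 and 8.50 with AE1-329 alone and 7.46, 7.72 and 7.94 in vehicle. The 2 groups with Aβ42 overlapped at about the same level, far above the others. Helz2 rose by 2.27 ± 0.15 with Aβ42 (4.84-fold, adjusted p = 1.06e-07), and the difference with AE1-329 added was -0.26 ± 0.15 (adjusted p = 0.371, and 0.0157 with the litter block). Phf11d, a PHD finger protein, had 8.19, 8.40 and 8.97 with both agents, 9.52, 9.77 and 9.92 with Aβ42 alone, 7.47, 7.81 and 8.47 with AE1-329 alone and 7.95, 8.05 and 8.58 in vehicle. Here 2 of the combined arrays lay within the range of vehicle, and none reached that of Aβ42 alone. Phf11d rose by 1.54 ± 0.25 with Aβ42 (adjusted p = 0.000423) and fell by 1.22 ± 0.25 with AE1-329 added (adjusted p = 0.00666). Sp100, a component of nuclear bodies, had 8.75, 8.75 and 9.21 with both agents, 9.43, 9.62 and 9.68 with Aβ42 alone, 8.77, 8.94 and 9.21 with AE1-329 alone and 9.18, 8.94 and 9.24 in vehicle. It was highest with Aβ42 alone, and the other 3 groups overlapped. Sp100 rose by 0.45 ± 0.14 with Aβ42 (adjusted p = 0.0262), though not without replicates 2 or 3 of Aβ42 alone or vehicle replicate 2 (adjusted p between 0.0785 and 0.0961), and fell by 0.67 ± 0.14 with AE1-329 added (adjusted p = 0.00615). Xaf1, a binding partner of an apoptosis inhibitor, fell by 0.91 ± 0.16 (adjusted p = 0.00229), and Ifi35 fell by 0.65 ± 0.15 (adjusted p = 0.0121). Epsti1 passed in none of the 6 comparisons with the deposited values and no litter block. With the block, Epsti1 passed for Aβ42 alone (0.18 ± 0.08, adjusted p = 0.147, and 0.0235 with the block) and in the interaction (-0.32 ± 0.12, adjusted p = 0.305, and 0.0445 with the block). After a further quantile normalization it also passed for Aβ42 alone with no block. The Ifi35 call ended on leaving out replicate 1 of Aβ42 with AE1-329 or replicate 3 of Aβ42 alone (adjusted p = 0.0621 and 0.0610).

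The 6 measured membrane, secreted and luminal proteins were mixed, with 3 higher with Aβ42 alone. Tor3a, an interferon-induced ATPase of the endoplasmic reticulum, had 10.21, 10.39 and 10.49 with both agents, 11.07, 11.15 and 11.30 with Aβ42 alone, 9.52, 9.58 and 9.89 with AE1-329 alone and 9.41, 9.77 and 9.98 in vehicle. Rtp4, a receptor transporter with antiviral activity, had 10.24, 10.41 and 10.62 with both agents, 10.89, 11.19 and 11.28 with Aβ42 alone, 9.78, 9.97 and 10.21 with AE1-329 alone and 9.80, 9.67 and 9.90 in vehicle. In both genes the combined arrays lay in the middle, clear of the other groups. Tor3a rose by 1.46 ± 0.14 with Aβ42 (adjusted p = 2.92e-06) and fell by 0.82 ± 0.14 with AE1-329 added (adjusted p = 0.00150). Rtp4 rose by 1.33 ± 0.13 (adjusted p = 3.83e-06) and fell by 0.70 ± 0.13 (adjusted p = 0.00301). Bst2, or tetherin, which holds budding virus at the membrane, rose by 0.39 ± 0.08 (adjusted p = 0.00267). It fell by 0.28 ± 0.08 with AE1-329 added (adjusted p = 0.0437), a call that ended on leaving out any 1 of 7 arrays, namely any replicate of Aβ42 with AE1-329, replicate 2 or 3 of Aβ42 alone, replicate 3 of AE1-329 alone or vehicle replicate 2 (adjusted p between 0.0505 and 0.154).

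The other 3 of this group kept away from the common pattern. Ifitm3, which blocks viral entry from endosomes, stood at 12.27, 12.37 and 12.46 with both agents, at 12.24, 12.26 and 12.39 with Aβ42 alone, at 11.94, 12.24 and 12.25 with AE1-329 alone and at 11.92, 12.06 and 12.29 in vehicle. Lgals3bp, a secreted glycoprotein, stood at 12.65, 12.62 and 12.59 with both agents, at 12.64, 12.61 and 12.69 with Aβ42 alone, at 12.56, 12.62 and 12.60 with AE1-329 alone and at 12.31, 12.55 and 12.71 in vehicle. Groups overlapped in both genes, and neither passed in any comparison with all 12 arrays and no block. With the litter block Ifitm3 passed for Aβ42 alone against vehicle (0.21 ± 0.10, adjusted p = 0.172, and 0.0255 with the block), for both agents against AE1-329 alone (0.22 ± 0.10, adjusted p = 0.163, and 0.0209 with the block) and for both agents against vehicle (0.28 ± 0.10, adjusted p = 0.0752, and 0.00580 with the block). Lgals3bp was called as higher with Aβ42 alone when vehicle replicate 3 was left out (adjusted p = 0.0421). Lgals9, the secreted lectin galectin-9, had 10.98, 10.92 and 11.04 with both agents, 11.35, 11.24 and 11.49 with Aβ42 alone, 11.16, 11.11 and 11.12 with AE1-329 alone and 11.39, 11.40 and 11.49 in vehicle. Both groups with AE1-329 lay below both groups without it. Lgals9 differed by -0.07 ± 0.06 with Aβ42 alone (adjusted p = 0.536), and it fell by 0.38 ± 0.06 with AE1-329 added to Aβ42 (adjusted p = 0.00190), by 0.30 ± 0.06 with AE1-329 alone (adjusted p = 0.0101) and by 0.45 ± 0.06 with both agents against vehicle (adjusted p = 0.000194).

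With AE1-329 alone, 2 members differed from vehicle. Trim25 rose and Lgals9 fell, and 40 of the 42 members did not pass, where 4.71% of all genes were higher and 5.45% lower. The median was 0.07 with all 12 arrays and -0.11 without replicate 3 of AE1-329 alone. That array set the sign of several fitted changes, as the plot with and without it shows. Ifit1 differed from vehicle by 0.54 with it and by -0.14 without it, Rsad2 by 0.37 and -0.44, and Cmpk2 by 0.40 and -0.27, none of which passed. Trim25 and Lgals9 were called with each of the 12 arrays left out in turn, and a second member rose on omitting replicate 1 of Aβ42 with AE1-329, replicate 1 of AE1-329 alone or vehicle replicate 3. With the litter block 5 members were higher and 2 lower, where 6.06% of all genes were higher and 6.58% lower. The block added Oas1b (0.22, adjusted p = 0.0211), Oasl1 (0.54, adjusted p = 0.0138), Trim34a (0.21, adjusted p = 0.0261) and Helz2 (0.49, adjusted p = 0.000286) to the rises and Parp12 (-0.23, adjusted p = 0.0116) to the falls. With the block and without replicate 3 of AE1-329 alone the counts were 3 and 3, where 3.58% of all genes were higher and 4.30% lower.

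**Figure D4:**
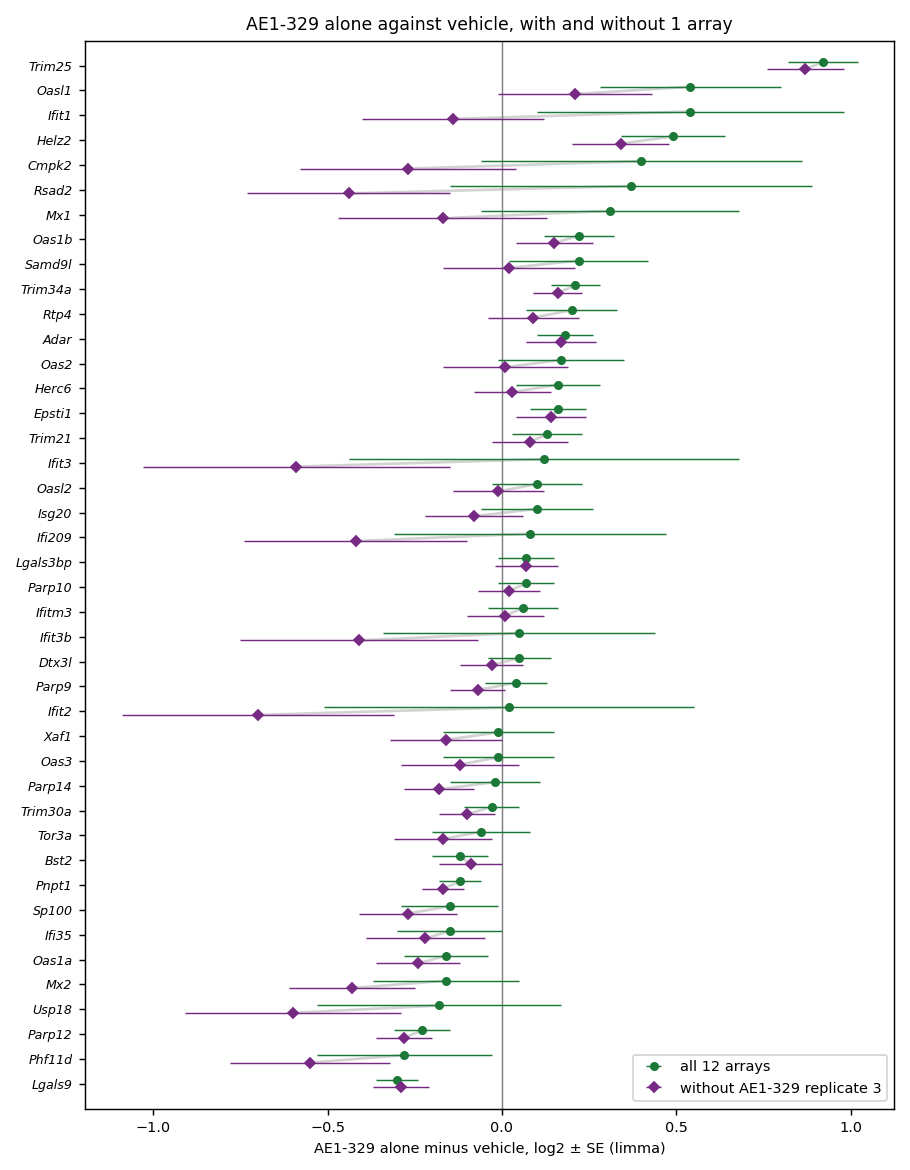
Log2 difference between AE1-329 alone and vehicle (x axis, ± SE of the limma fit) for each measured member, with all 12 arrays (green circles) and without replicate 3 of AE1-329 alone (purple diamonds). Trim25 is at 0.92 and 0.87 and Lgals9 at -0.30 and -0.29, whereas Rsad2 moves to -0.44 from 0.37 when the array is left out.

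The interaction asks whether Aβ42 changed a gene less, or more, when AE1-329 was present than when it was not. It was negative for 41 of the 42 members, with a median of -0.70 over the members (-0.52 without replicate 3 of AE1-329 alone) and -0.00 over all genes. By the test over all genes 10 members passed as lower and 0 as higher, where 0.918% of all genes were lower and 1.03% higher. They were Oas1b, Mx2, Herc6, Pnpt1, Parp9, Dtx3l, Trim21, Trim25, Trim34a and Rtp4. For Mx2 the change with Aβ42 was 0.97 ± 0.21 in the presence of AE1-329 and 2.53 ± 0.21 in its absence, an interaction of -1.56 ± 0.30 (adjusted p = 0.0176), and of -1.29 (adjusted p = 0.0194) without replicate 3 of AE1-329 alone. For Trim21 it was 0.43 ± 0.10 in the presence and 1.31 ± 0.10 in the absence of AE1-329 (interaction -0.89 ± 0.14, adjusted p = 0.00436, and -0.84, adjusted p = 0.0150, without that array). Trim25 had the smallest p of the members (-1.23 ± 0.14, adjusted p = 0.000480, and -1.18, adjusted p = 0.00193, without that array), with a change of opposite sign in the presence of AE1-329. The largest fitted interactions, in Mx1 (-1.99 ± 0.53, adjusted p = 0.0894) and Ifit2 (-1.67 ± 0.75, adjusted p = 0.455), passed with the litter block (adjusted p = 0.000480 and 0.0471). Without replicate 3 of AE1-329 alone they were smaller, at -1.52 ± 0.41 for Mx1 (adjusted p = 0.124) and -0.95 ± 0.53 for Ifit2 (adjusted p = 0.676).

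The number of interaction calls depended on single arrays and on the litter. With the litter block 34 members passed as lower, where 1.67% of all genes did. Without replicate 3 of AE1-329 alone 6 passed (Oas1b, Mx2, Herc6, Dtx3l, Trim21 and Trim25), where 0.652% of all genes did. With the block as well 30 passed, where 1.15% of all genes did. With no block the count was 5 without replicate 1 of the combined treatment, 6 without its replicate 2, 5 without replicate 2 of Aβ42 alone and 4 without its replicate 3. The share of all genes was not taken for these omissions, so a general loss of calls cannot be told from one among the members. The calls of Oas1b, Dtx3l, Trim21 and Trim25 held without each of the 12 arrays. Herc6 was lost on omitting replicate 3 of Aβ42 alone (adjusted p = 0.0513), and Mx2 on omitting replicate 1 or 2 of Aβ42 with AE1-329 or replicate 2 or 3 of Aβ42 alone (adjusted p between 0.0532 and 0.0550). The calls of Pnpt1 and Rtp4 ended for 6 of the 12 arrays each (adjusted p between 0.0510 and 0.0802), and those of Parp9 and Trim34a for 10 each (adjusted p between 0.0544 and 0.125).

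The share of the Aβ42 change that remained with AE1-329 was taken within each litter, as the log2 change of the combined treatment from vehicle over that of Aβ42 alone from vehicle. It was computed for the 31 members that passed with Aβ42 alone and changed by at least 0.5. The same arrays chose these members and form the denominator, so the choice can shift the share. The median share was 43.9%, 44.3% and 44.2% in litters 1, 2 and 3, a mean of 44.1% ± 0.208 (SD, n = 3 litters). That SD covers the 3 medians only, and single members varied far more between litters. With a minimum change of 1 log2 unit (24 members) the medians were 44.0%, 44.5% and 46.7%. Helz2 kept 88.2%, 92.7% and 84.6% of its change in litters 1, 2 and 3, and Oasl1 kept 90.5%, 80.4% and 87.7%. Samd9l followed with 71.3%, 66.1% and 82.6%, and Ifit1 with 66.4%, 64.5% and 70.3%. At the other end stood Trim30a with -21.1%, 19.7% and 29.6%, where the negative share means that litter 1 was below vehicle with both agents. Phf11d kept 15.5%, 20.2% and 29.0% and Ifit3b 12.7%, 21.4% and 28.2%. Mx2 kept 27.2%, 22.0% and 46.3% and Oas1a 36.5%, 6.68% and 17.9%. Paralogs stood apart within a role, as Oasl2 kept 38.6%, 37.5% and 30.6% and Ifit2 kept 39.3%, 37.2% and 40.3%. The share takes in any change that AE1-329 made by itself. Over AE1-329 alone, Aβ42 raised Helz2 by 1.60, 1.63 and 1.33 in litters 1, 2 and 3. Without AE1-329 it raised Helz2 by 2.36, 2.23 and 2.23. For Oasl1 the values were 1.77, 1.77 and 1.22 with AE1-329, and 2.50, 2.38 and 2.52 without it. The difference between genes was not tested.

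**Figure D5:**
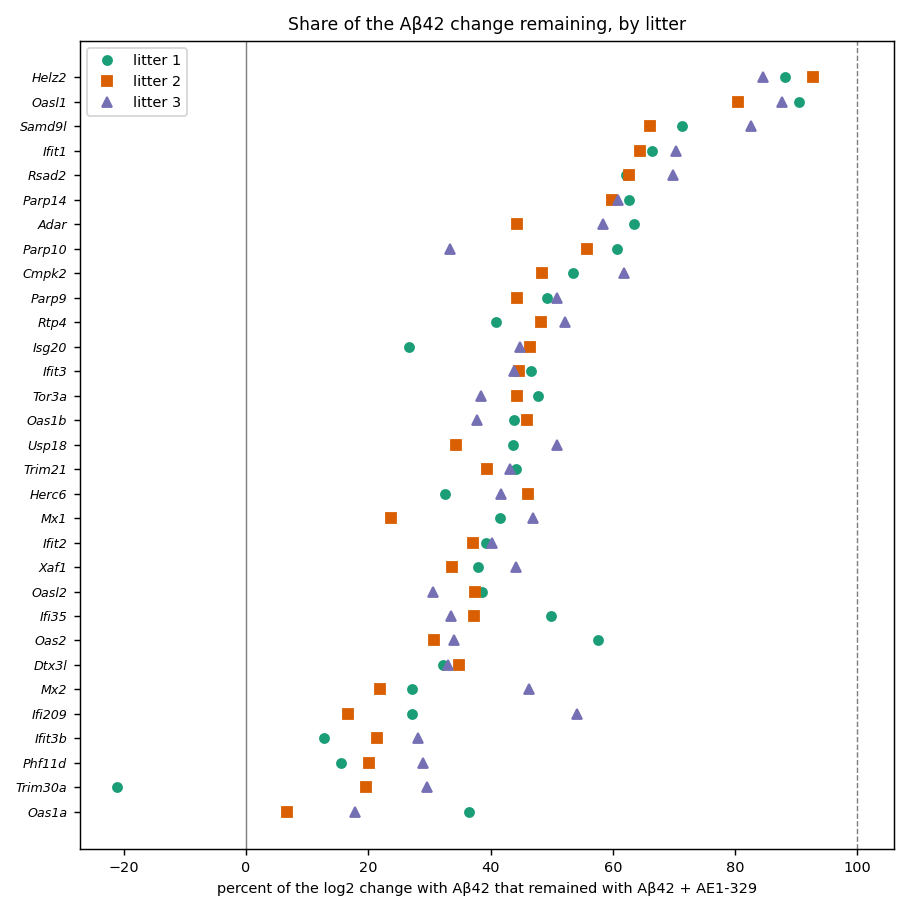
Percent of the log2 change with Aβ42 that remained with Aβ42 and AE1-329 (x axis), for 31 members in each of the 3 litters (points, shaped by litter), with dashed and solid lines at 100 and 0. Helz2 and Oasl1 stay above 80% in every litter, and Trim30a, Phf11d and Ifit3b stay below 30%.

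The genes that induce interferon and carry its signal were followed as a list of 36 genes that are not members, of which 35 were measured. With Aβ42 alone 18 rose, 6 fell and 11 did not pass, where 10.7% of all genes were higher and 14.8% lower. With AE1-329 added to Aβ42 13 fell, 2 rose and 20 did not pass, where 5.04% of all genes were lower and 5.99% higher. With AE1-329 alone 3 rose and 4 fell, where 4.71% of all genes were higher and 5.45% lower. These last counts were 8 and 4 with the litter block, where 6.06% of all genes were higher and 6.58% lower. They were 1 and 3 without replicate 3 of AE1-329 alone, where 2.97% were higher and 4.14% lower. The interferon genes themselves were dim. Ifnb1, the gene of interferon beta, had 5.68, 5.78 and 5.62 with both agents, 5.91, 5.51 and 5.70 with Aβ42 alone, 5.45, 5.58 and 5.53 with AE1-329 alone and 5.62, 5.69 and 5.50 in vehicle. These levels overlapped in all groups and lay below the median of genes, and Ifnb1 differed by 0.11 ± 0.09 with Aβ42 alone (adjusted p = 0.472). Its signal over background is unknown, so a change could have been missed.

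Among the signalling genes, 1 factor amplifies the response and others form the complex that binds the response element. Irf7, the amplifying transcription factor of the pathway, had 9.09, 9.24 and 9.66 with both agents, 9.84, 9.88 and 10.19 with Aβ42 alone, 8.46, 8.85 and 9.27 with AE1-329 alone and 7.44, 8.35 and 9.04 in vehicle. Litter 3 was the highest in each group, and the arrays of Aβ42 alone lay above all others. Irf7 rose by 1.69 ± 0.32 with Aβ42 (adjusted p = 0.00129) and differed by -0.64 ± 0.32 with AE1-329 added (adjusted p = 0.287, and 0.0276 with the litter block). Stat2 rose by 1.00 ± 0.13 (adjusted p = 6.47e-05) and fell by 0.45 ± 0.13 (adjusted p = 0.0444), and Irf9, its DNA-binding partner, rose by 0.39 ± 0.08 (adjusted p = 0.00334) and fell by 0.35 ± 0.08 (adjusted p = 0.0154). Irf3, the factor that starts interferon beta transcription, did not pass in any comparison. Ifnar1, a receptor chain, was higher with Aβ42 alone (0.17 ± 0.05, adjusted p = 0.0135), with AE1-329 alone (0.23 ± 0.05, adjusted p = 0.00578) and with AE1-329 added to Aβ42 (0.23 ± 0.05, adjusted p = 0.00443). Tlr4, a pattern receptor that can signal to interferon, fell by 0.88 ± 0.09 with Aβ42 (adjusted p = 6.17e-06) and rose by 0.77 ± 0.09 with AE1-329 added (adjusted p = 8.79e-05).

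The smallest p-values of this list with Aβ42 alone were those of Ikbke, the inducible kinase of interferon factors (2.90 ± 0.10, adjusted p = 1.56e-10), the cytokine suppressor Socs3 (3.48 ± 0.14, adjusted p = 7.63e-10) and the transcription factor Irf1 (1.73 ± 0.10, adjusted p = 3.37e-08). With AE1-329 added to Aβ42 they were those of the RNA receptor Tlr7 (-0.68 ± 0.06, adjusted p = 8.43e-06), the adaptor Ticam1 (-0.53 ± 0.06, adjusted p = 7.71e-05) and Tlr4. With AE1-329 alone they were those of Tlr7 (-0.36 ± 0.06, adjusted p = 0.00148), the phosphatase gene Ptpn6 (-0.32 ± 0.05, adjusted p = 0.00179) and Ifnar1. The cytosolic RNA sensors Ifih1 and Ddx58, which encode MDA5 and RIG-I, fell by 0.87 ± 0.11 (adjusted p = 0.000223) and 0.73 ± 0.13 (adjusted p = 0.00223) with AE1-329 added to Aβ42. In the interaction 4 genes of the list passed, all lower, namely Irf1 (-0.91 ± 0.14, adjusted p = 0.00434), Ifih1 (-0.99 ± 0.16, adjusted p = 0.00490), Ddx58 (-1.04 ± 0.18, adjusted p = 0.00837) and Irf9 (-0.51 ± 0.12, adjusted p = 0.0458). With the litter block 11 passed as lower and 1 as higher, and without replicate 3 of AE1-329 alone 3 passed, all lower. Of all genes 0.918% were lower in the interaction. The block gave 1.67% lower and 1.73% higher, and leaving out that array gave 0.652% lower.

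NF-kB target genes, the other large programme of an inflammatory stimulus, were set beside the members as a list of 21, of which 20 were measured. With Aβ42 alone all 20 rose, with a median of 2.46, where 10.7% of all genes were higher. They were led by smallest p by the chemokine gene Cxcl2 (6.95 ± 0.10, adjusted p = 4.73e-13), Tnf (3.95 ± 0.09, adjusted p = 5.67e-12) and the adhesion gene Icam1 (3.46 ± 0.08, adjusted p = 7.28e-12). With AE1-329 added to Aβ42, 5 rose, 4 fell and 11 were not called, where 5.99% of all genes were higher and 5.04% lower. The median was 0.00. The members had 0 higher and 25 lower in that comparison. The smallest p-values were those of the chemokine gene Ccl4 (-0.72 ± 0.10, adjusted p = 0.000354), the NF-kB cofactor Bcl3 (0.54 ± 0.08, adjusted p = 0.000461) and Icam1 (-0.55 ± 0.08, adjusted p = 0.000469). In the interaction 3 of the 20 were higher and 1 lower, where 1.03% of all genes were higher and 0.918% lower. The difference between the lists was not tested.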

How the data were processed

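Transcripts were measured on 12 Affymetrix arrays of mouse microglia, and groups and replicate numbers came from the labels. The authors deposited log2 values per probe set. Per the submitters' processing notes, RMA and Partek 6.5 were involved, in roles the notes leave out. From their range (2.79 to 13.95) the values are on a log2 scale. No genome build, filter or litter correction is stated there. RMA usually aligns arrays by quantiles, so changes are relative to the bulk of genes. Signal over background cannot be read from these values, and precision is limited by how many arrays there are. The annotation gave 1 gene symbol to 21789 of the 35556 probe sets, several to 1621 and none to 12146. Only those with 1 symbol were named, and the probe set with the highest mean was kept per gene.

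A model of 4 group means over the 12 arrays was fitted with limma 3.58.1 (R 4.3.3, with 8 residual and 4.54 prior degrees of freedom), with two-sided tests and Benjamini-Hochberg adjustment over 19938 genes within each of 6 comparisons at 0.05. The fit was tested on simulated data. Litter pairing rests on the submitters' design text. As a check, deviations from group means of same-numbered arrays correlated at a mean r of 0.33 over 18 pairs (0.00435 to 0.54, 17 above 0.1), and 12 of 12 arrays correlated best with their own number. The replicate block leaves 6 residual degrees of freedom.

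The members and lists were chosen with earlier results of these data known. Values per array are given for the members with the largest changes in each role or comparison, for those whose interaction passed and for Mx1, Mx2, Oas1a, Oas1b, Ifit1, Rsad2, Usp18, Irf7 and Ifnb1. For the pathway lists, the 3 smallest p-values of a comparison are named in the comparisons described, and other genes named in the text were chosen after their values were seen. Alternatives were the replicate block, each array left out in turn, a filter to genes above the median level, averaging a gene's probe sets, a further quantile normalization, a trended robust prior and only the groups compared. The block together with replicate 3 of AE1-329 alone left out was chosen after seeing the data.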

Additional observations from a re-analysis of the deposited data

Results flagged for a closer look

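For 10 members, the effect of Aβ42 differed between cultures with and without AE1-329 by limma's test of the interaction over all genes (adjusted p under 0.05). In each, the log2 change with Aβ42 was lower in the presence of AE1-329. The difference was -1.56 for Mx2, -1.23 for Trim25, -0.93 for Oas1b and -0.89 for both Trim21 and Rtp4. It was -0.88 for Herc6, -0.67 for Dtx3l, -0.58 for Parp9, -0.43 for Trim34a and -0.40 for Pnpt1. Among all genes 0.918% passed in this direction. The calls of Oas1b, Dtx3l, Trim21 and Trim25 held when any 1 of the 12 arrays was left out, and those of the other 6 ended in at least 1 case. Without replicate 3 of AE1-329 alone, Pnpt1 (adjusted p = 0.0692), Parp9 (adjusted p = 0.0767), Trim34a (adjusted p = 0.0963) and Rtp4 (adjusted p = 0.0534) did not pass. Trim25 rose with AE1-329 alone (0.92) and fell with Aβ42 in the presence of AE1-329 (-0.91). For Trim34a the same values were 0.21 (adjusted p = 0.0707, and 0.0261 with the replicate block) and -0.14 (adjusted p = 0.195, and 0.0974 with the block).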

How the results depend on the processing

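With 3 arrays a group and litters that run far apart, counts of calls moved between alternatives. Of 4728 values of single members under the alternatives, 4298 kept their direction and their side of the threshold. A call was lost in 147 and gained in 208, 75 changed sign without a call on either side, and 0 called values reversed. For many of these values the direction could not change. The replicate block with all arrays, the trended robust prior and only the groups compared left the fitted change as it was. So did averaging probe sets, as each member had a single probe set. Leaving out an array outside the groups compared also kept their change. The count of 0 reversals therefore says little about directions.

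The replicate block gave 5 members higher and 2 lower for AE1-329 alone (1 and 1 without it), 27 higher for the combined treatment against AE1-329 alone (16 without it), 2 lower against vehicle (1 without it) and 34 lower in the interaction (10 without it). It moved no other count by over 1.5 times. Of all genes the block gave 6.06% higher and 6.58% lower for AE1-329 alone. It gave 10.7% higher for the combined treatment against AE1-329 alone, 13.7% lower against vehicle and 1.67% lower in the interaction. With replicate 3 of AE1-329 alone also left out, the block gave 38 lower for AE1-329 added to Aβ42, 3 higher and 3 lower for AE1-329 alone, 27 higher and 2 lower for the combined treatment against AE1-329 alone, 29 higher and 2 lower against vehicle, and 30 lower in the interaction. There, 5.37% of all genes were lower for AE1-329 added to Aβ42, and 3.58% higher and 4.30% lower for AE1-329 alone. For the combined treatment 8.90% were higher and 11.3% lower against AE1-329 alone, and 9.74% and 12.9% against vehicle. In the interaction 1.15% were lower. Quantile normalization again gave 2 higher for AE1-329 alone and 2 lower for the combined treatment against either group without Aβ42. Only genes above the median level gave 3 higher for AE1-329 alone, with 39 members tested. Leaving out 1 array gave 1 to 2 higher for AE1-329 alone, 10 to 25 higher for the combined treatment against AE1-329 alone, 12 to 21 higher against vehicle and 4 to 13 lower in the interaction. The share of all genes was not taken for the further quantile normalization or the level filter. Of the single arrays left out, it was taken for replicate 3 of AE1-329 alone only. The share of the Aβ42 change that remained was 45.1% with a minimum change of 1 log2 unit (24 members), against 44.1%. The cause of these shifts was not tested. Counts for Aβ42 alone against vehicle stayed within 1.5 times under every alternative run.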
